A study of Mus musculus with 1104 samples.

Results

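Cytochrome P450 enzymes of families 1 to 4 are the membrane-bound haem oxidases that metabolise drugs, steroids, fatty acids and other lipids. Here they were taken as every row of the count table whose symbol begins with Cyp1, Cyp2, Cyp3 or Cyp4 followed by a subfamily letter and a number, and whose mean over the libraries of at least 1 organ reached 1 CPM, a read count scaled for library size. Such a symbol was carried by 80 of 20646 genes, and 64 of these passed, among them 15 Cyp2c, 8 Cyp4f, 7 Cyp2d and 6 Cyp4a genes. Just inside the limit lay Cyp2d12 (1.01 CPM in its highest organ), Cyp2g1 (1.04 CPM) and Cyp2j13 (1.08 CPM), and just outside it Cyp3a44 (0.863 CPM), Cyp2w1 (0.649 CPM) and Cyp1a1 (0.575 CPM).

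Messenger RNA was measured by poly(A) RNA-seq in 13 organs of wild-type male C57BL/6 mice. The mice ate a diet with 60 kcal% fat (D12492) from 8 weeks of age, and 6 of them were dissected at each time point. The later groups were 1 day (1d), 3d, 1 week (1w), 10d, 2w, 3w, 4w, 5w, 6w, 7w, 8w, 10w and 12w on the diet, in epididymal fat also 16w and 20w, and the baseline group was 0d, the day the diet began, which gave 184 groups and 1104 libraries. Every later time point was compared with the same 0d libraries of its organ, so comparisons within an organ are not independent of each other. Mice kept off the diet for the later times were not analysed here, so diet, age and day of dissection cannot be told apart. The p-values below measure changes against the spread among the libraries of an organ's groups. Library totals ran from 7670532 to 27036098 counts with a median of 13464321.

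These enzymes take electrons from NADPH through P450 oxidoreductase (Por), and some also through cytochrome b5. Families 1 to 3 hold most of the enzymes that clear foreign compounds in liver and gut, and their genes are switched on by ligand-activated receptors: the aryl hydrocarbon receptor (AhR) acts on Cyp1 genes, and the constitutive androstane receptor (CAR) and the pregnane X receptor (PXR) act on Cyp2b, Cyp2c and Cyp3a genes. Family 4 enzymes oxidise fatty acids and eicosanoids at the end of the chain, and the Cyp4a genes are classic targets of the fatty acid receptor PPARα. In mouse liver the pulsatile release of growth hormone in males keeps a set of male-biased genes on and a set of female-biased genes off. Many of these genes arose by tandem duplication, and near-identical copies lie side by side.

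The duplication bears on every value below. The 15 Cyp2c members lie on chromosome 19, the 7 Cyp2d members on chromosome 15, 7 of the 8 Cyp4f members on chromosome 17, the Cyp4a and Cyp2j members on chromosome 4 and the 4 Cyp3a members on chromosome 5. For 26 members the nearest relative had a transcript at least 90% identical, with 98.4% between Cyp4a12a and Cyp4a12b, 98.3% between Cyp2a4 and Cyp2a5, 98.0% between Cyp2c40 and Cyp2c68, 97.8% between Cyp2c40 and Cyp2c69, and 97.2% between Cyp4a10 and Cyp4a32. The sources used here do not say how reads that match several of them were counted, so the split of reads within such pairs is uncertain, and sums over subfamilies are given beside the single genes.

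The pairs whose members parted in liver, described further on, are shown here by the DNA before their starts, since their transcripts are so alike. The stretches come from RefSeq (GRCm38.p6) and are the part of the 250 bases before each annotated start that the copies share. The Cyp2c copies lie on the minus strand at chr19:39649125-39649291 (Cyp2c67), chr19:39741136-39741303 (Cyp2c68), chr19:39812817-39812983 (Cyp2c40) and chr19:39886802-39886968 (Cyp2c69), each before its gene's RefSeq start; in GENCODE M21 (GRCm38) the genes span chr19:39608842-39649051 (Cyp2c67), chr19:39688834-39741054 (Cyp2c68), chr19:39767071-39812814 (Cyp2c40) and chr19:39842814-39886799 (Cyp2c69). Capitals mark bases that differ from Cyp2c67.
Cyp2c67: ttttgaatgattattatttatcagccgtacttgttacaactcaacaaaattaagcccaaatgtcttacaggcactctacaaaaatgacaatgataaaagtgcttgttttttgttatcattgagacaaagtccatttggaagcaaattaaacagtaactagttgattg
Cyp2c68: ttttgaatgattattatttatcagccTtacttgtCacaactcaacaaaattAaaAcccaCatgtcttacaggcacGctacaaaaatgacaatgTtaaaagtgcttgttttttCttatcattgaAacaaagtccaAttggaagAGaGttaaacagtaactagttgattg
Cyp2c40: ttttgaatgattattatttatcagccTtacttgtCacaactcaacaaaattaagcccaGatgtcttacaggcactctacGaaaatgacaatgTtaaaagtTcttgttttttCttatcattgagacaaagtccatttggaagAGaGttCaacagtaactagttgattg
Cyp2c69: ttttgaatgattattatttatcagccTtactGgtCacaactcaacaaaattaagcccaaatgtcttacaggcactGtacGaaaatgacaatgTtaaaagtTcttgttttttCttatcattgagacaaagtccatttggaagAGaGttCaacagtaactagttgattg
Cyp2c68 differed from Cyp2c67 by 12 substitutions and 1 inserted base, Cyp2c40 by 11 substitutions and Cyp2c69 by 12. At 7 positions Cyp2c67 differed from the other 3, and at 3 positions Cyp2c40 and Cyp2c69 shared a base that Cyp2c67 and Cyp2c68 did not have.

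The upstream stretches of the pair Cyp2a5, at chr7:26835089-26835337 on the plus strand, and Cyp2a4, at chr7:26306943-26307191 on the plus strand, differed by 4 substitutions in 249 bases. In GENCODE M21 the genes span chr7:26835305-26843548 (Cyp2a5) and chr7:26307169-26315088 (Cyp2a4). The last bases of both stretches, before the RefSeq starts, thus lie within these GENCODE spans. Capitals mark the bases of Cyp2a4 that differ from Cyp2a5.
Cyp2a5: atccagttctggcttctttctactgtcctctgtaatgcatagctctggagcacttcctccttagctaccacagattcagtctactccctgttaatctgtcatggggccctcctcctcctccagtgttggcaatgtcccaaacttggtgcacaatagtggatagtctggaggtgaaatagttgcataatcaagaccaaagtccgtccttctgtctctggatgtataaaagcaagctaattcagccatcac
Cyp2a4: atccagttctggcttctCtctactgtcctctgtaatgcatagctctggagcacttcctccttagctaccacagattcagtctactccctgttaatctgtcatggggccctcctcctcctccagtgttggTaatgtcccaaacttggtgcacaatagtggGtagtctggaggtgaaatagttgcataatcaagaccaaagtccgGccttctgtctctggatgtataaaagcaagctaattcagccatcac
AGTTCA, a word found in some elements that bind nuclear receptors, was found on either strand in 11.8% of all 32851 promoters of the table and in 8 of the 51 members that had one (15.7%). Other forms of such words were not searched. These were Cyp2c40, Cyp2c50, Cyp2c69, Cyp2j12, Cyp3a11, Cyp4a32, Cyp4f13 and Cyp4v3. TTCNNNGAA, the core of STAT5 elements, was found in 7.02% of all promoters and in 3 of the 51 members (5.88%). The 2 words share letters and can overlap, and a match only describes what stands in the window.

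Liver held the most P450 messenger RNA, with a sum over the members of 19900 CPM averaged over all libraries, followed by small intestine (5750 CPM), epididymal fat (2010 CPM), inguinal fat (1440 CPM), the pituitary gland (467 CPM) and brown fat (461 CPM). The other 7 organs had sums between 48.5 and 265 CPM. Of the 64 members 39 had their highest mean in liver and 13 in small intestine. In all, 27 members reached 1 CPM in a single organ, among them Cyp1a2 and Cyp2c70 in liver and Cyp2c65 and Cyp4f40 in small intestine, and 6 reached it in every organ: Cyp2d22, Cyp2j6, Cyp4f13, Cyp4f16, Cyp4f17 and Cyp4v3.

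**Figure D1:**
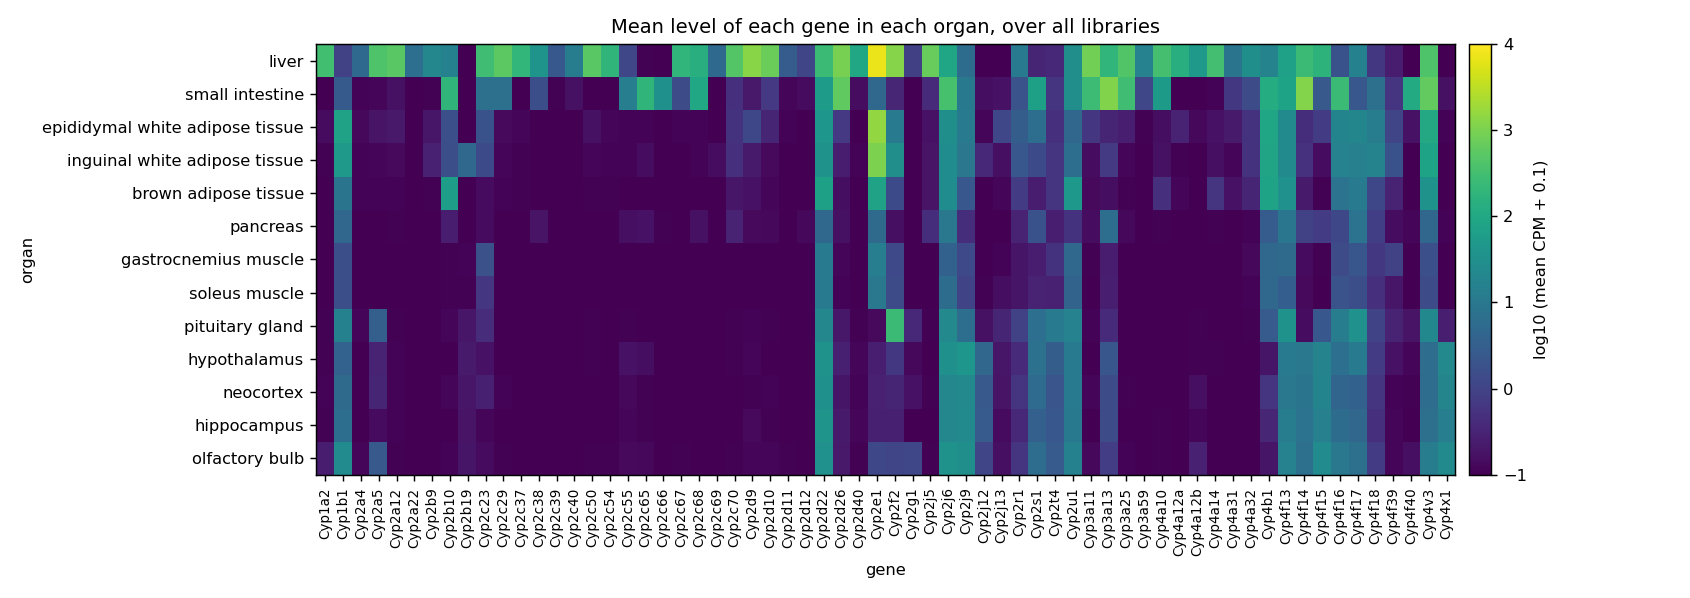
Mean level of each of the 64 members (columns) in each of the 13 organs (rows) over all libraries of the organ, as log10 of CPM + 0.1. Liver and small intestine hold most of the high values, and 6 members reach 1 CPM in all 13 organs.

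Per kilobase of exon, so that genes can be compared, Cyp2e1 was the highest member in liver at 0d with 3180 ± 487 CPM per kb (SD, n = 6), 29.5% of the sum of all members. Cyp2e1 oxidises ethanol, acetone and fatty acids. Cyp2f2, known for oxidising naphthalene in mouse airway, followed with 846 ± 70.2 CPM per kb, and Cyp3a11, the main Cyp3a enzyme of mouse liver, with 842 ± 139 CPM per kb, and these 2 lay within their spread. In small intestine Cyp4f14, which degrades leukotriene B4, had 573 ± 32.8 CPM per kb and Cyp3a13 545 ± 59.8 CPM per kb, again within the spread of each other. In fat Cyp2e1 made up most of the sum of all members per kb at 0d: 91.7% in epididymal, 87.7% in inguinal and 56.3% in brown fat.

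Marker genes of the labelled tissues were present. All 10 hepatocyte markers had reads in liver, where skeletal muscle genes Acta1, Ckm and Tnnt3 were at 0 at 0d. All 8 enterocyte markers had reads in small intestine, and all 8 adipocyte markers in epididymal and inguinal fat. A low-count filter left 54 members to test in liver, 37 in small intestine, 27 in epididymal, 24 in inguinal and 17 in brown fat. A member that passes the filter only through the group in which it is high is bound to differ, so the counts below describe the tested members and are not evidence by themselves.

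In liver the P450 genes fell from the first day, and by 12w most of those tested had changed. The summed member level was 16500 to 21800 CPM at 1d, against 23800 to 31000 CPM at 0d, so that the groups did not overlap, and it was 16800 to 22000 CPM at 12w. At 1d 2 members were higher and 14 lower at an adjusted p under 0.05 (edgeR), against 9.65% of all genes tested called in either direction. At 1w 2 were higher and 17 lower (10.7% of all genes), and at 12w 8 were higher and 32 lower (42.0% of all genes). The median log2 fold change of the tested members at 12w was -0.42, against 0.01 over all genes. Over all time points together 48 of 54 members changed, against 57.5% of all genes.

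Subfamily sums, which do not depend on how reads are split among copies, gave 1 higher and 10 lower of 17 at 12w, against 41.8% of all rows of that fit. The Cyp3a sum was 1340, 1440 and 1510 CPM (lowest, median and highest library) at 12w, against 4290, 5230 and 6990 CPM at 0d, and its log2 fold change was -1.90 ± 0.13 (SE, adjusted p = 9.09e-21). The Cyp2c sum was 1440, 1580 and 2390 CPM at 12w, against 4020, 4400 and 4770 CPM at 0d (-1.35 ± 0.09, adjusted p = 9.09e-21). Both sums lay lower in every 12w library than in any 0d library. The Cyp2b sum was higher at 12w (1.86 ± 0.55, adjusted p = 0.00397), and the sums of Cyp2e (0.01 ± 0.10), Cyp2j (-0.12 ± 0.05) and Cyp4a (0.60 ± 0.30) did not pass the test.

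**Figure D2:**
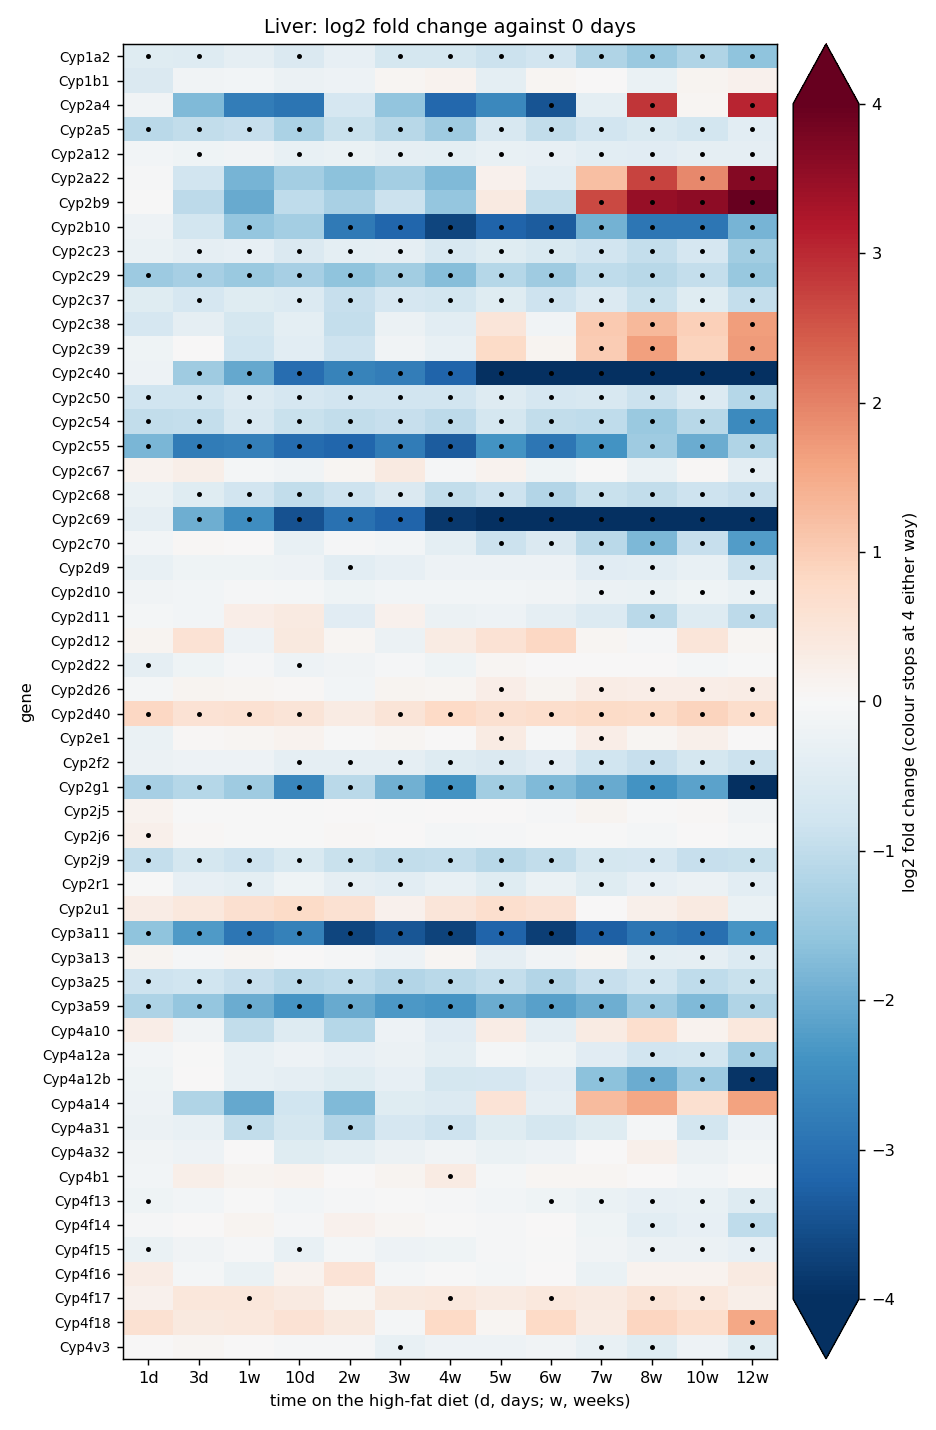
Log2 fold change of each tested member (rows) in liver at each of the 13 later time points (columns, 1d to 12w) against 0d, with red for higher and blue for lower; black dots mark an adjusted p under 0.05. Cyp3a11 and Cyp2c29 are lower at all 13 time points, and Cyp2b9 is higher at the late ones.

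Some targets of CAR and PXR were lower on the first day. Cyp3a11 had 988, 1460 and 1750 CPM at 1d and 765, 824 and 931 CPM at 12w, against 3600, 4190 and 5570 CPM at 0d. No library at 1d or 12w reached the lowest of 0d. Its log2 fold change was -1.62 ± 0.21 at 1d (adjusted p = 1.13e-08), -2.89 ± 0.22 at 1w (adjusted p = 1.23e-17), -3.77 ± 0.22 at 6w, where it was lowest, and -2.36 ± 0.21 at 12w (adjusted p = 2.05e-15). Cyp2c29, which makes epoxides of arachidonic acid, had 252, 501 and 579 CPM at 1d, against 1060, 1270 and 1420 CPM at 0d (-1.44 ± 0.17, adjusted p = 6.58e-10). These groups did not overlap either. Cyp3a59, a close copy of Cyp3a25, is not on the list of targets used here. It had 10.5, 21.6 and 27.2 CPM at 1d, against 29.8, 52.1 and 68.1 CPM at 0d (-1.22 ± 0.22, adjusted p = 6.65e-05), with all 1d libraries below all of 0d.

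Of the 8 members listed as CAR and PXR targets 5 were lower at 1d, 6 at 1w and 8 at 12w, and none was higher. Over all genes 9.65% were called in either direction at 1d, 10.7% at 1w and 42.0% at 12w. Cyp2b10, the usual marker of active CAR, did not pass at 1d (-0.19, adjusted p = 0.866). It was lower at 10 of the 13 time points, most at 4w with 0.821, 3.56 and 8.14 CPM, against 13.2, 22.6 and 137 CPM at 0d (-3.66 ± 0.62, adjusted p = 9.67e-06). The 4w and 0d libraries did not overlap. Outside the P450 genes 6 of 11 listed targets of these receptors were lower at 1d, among them the carboxylesterase Ces2a (-0.80 ± 0.10) and the glutathione transferases Gstm1 (-0.78 ± 0.14) and Gstm3 (-1.28 ± 0.31). At 12w 7 of that list were higher and 1 lower: Ces2a was lower (-2.14 ± 0.10), while Gstm2 (1.43 ± 0.19), the drug efflux pump Abcb1a (1.49 ± 0.29) and Gsta1 (2.52 ± 0.54) were higher. Of the receptor genes, Nr1i3, which encodes CAR, did not pass at 1d (-0.51, adjusted p = 0.0834) or 12w (0.37, adjusted p = 0.115), and Nr1i2, which encodes PXR, was higher at 12w (0.37 ± 0.13, adjusted p = 0.0122).

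Other liver members were lower at all 13 time points as well. In all 10 members were: Cyp2a5, Cyp2c29, Cyp2c50, Cyp2c54, Cyp2c55, Cyp2g1, Cyp2j9, Cyp3a11, Cyp3a25 and Cyp3a59. None was higher at all 13, although Cyp2d40 was at 12 of them, with 86.8, 112 and 136 CPM at 1d, against 55.8, 63.1 and 72.1 CPM at 0d (0.84 ± 0.14, adjusted p = 7.47e-06). Every 1d library of Cyp2d40 exceeded every 0d library. At 1w Cyp2d40 was at 0.62 ± 0.14 (adjusted p = 0.00118), and at 12w at 0.69 ± 0.14 (adjusted p = 2.39e-05). Cyp2j6, an epoxygenase of arachidonic acid, was called at 1d with 91.9, 107 and 117 CPM, against 76.1, 88.6 and 110 CPM at 0d (0.21 ± 0.07, adjusted p = 0.0481), and Cyp4f17 at 1w with 13.4, 17.8 and 20.3 CPM, against 7.47, 11.3 and 18.8 CPM at 0d (0.45 ± 0.16, adjusted p = 0.0478). For both the groups overlapped, and both calls were lost under other settings of the fit.

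Within the near-identical Cyp2c set the copies parted. Cyp2c69 had 0, 0.0828 and 0.201 CPM at 12w, a total of 8 counts in the 6 libraries, against 7.43, 28 and 40.3 CPM and 1888 counts at 0d (-7.87 ± 0.69, adjusted p = 1.41e-15). Cyp2c40 had 0.154, 0.384 and 0.604 CPM at 12w, against 27.4, 62.9 and 87.4 CPM at 0d (-7.23 ± 0.63, adjusted p = 7.87e-16). Both were lower from 3d on, at 12 of 13 time points. At 1w Cyp2c40 stood at -2.04 ± 0.40 (adjusted p = 0.000228) with no overlap, and Cyp2c69 at -2.49 ± 0.42 (adjusted p = 1.44e-05) with its highest 1w library (7.7 CPM) above its lowest 0d library. Of their copies, Cyp2c67 had 135, 154 and 165 CPM at 12w, against 154, 209 and 217 CPM at 0d (-0.36 ± 0.14, adjusted p = 0.032), and Cyp2c68 104, 116 and 145 CPM, against 183, 223 and 259 CPM at 0d (-0.91 ± 0.14, adjusted p = 2.5e-07). The 12w and 0d groups overlapped for Cyp2c67 and did not for Cyp2c68, which was lower at 12 of 13 time points and lowest at 6w (-1.18 ± 0.15, adjusted p = 3.83e-09). These are the 4 genes whose upstream stretches are printed above.

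**Figure D3:**
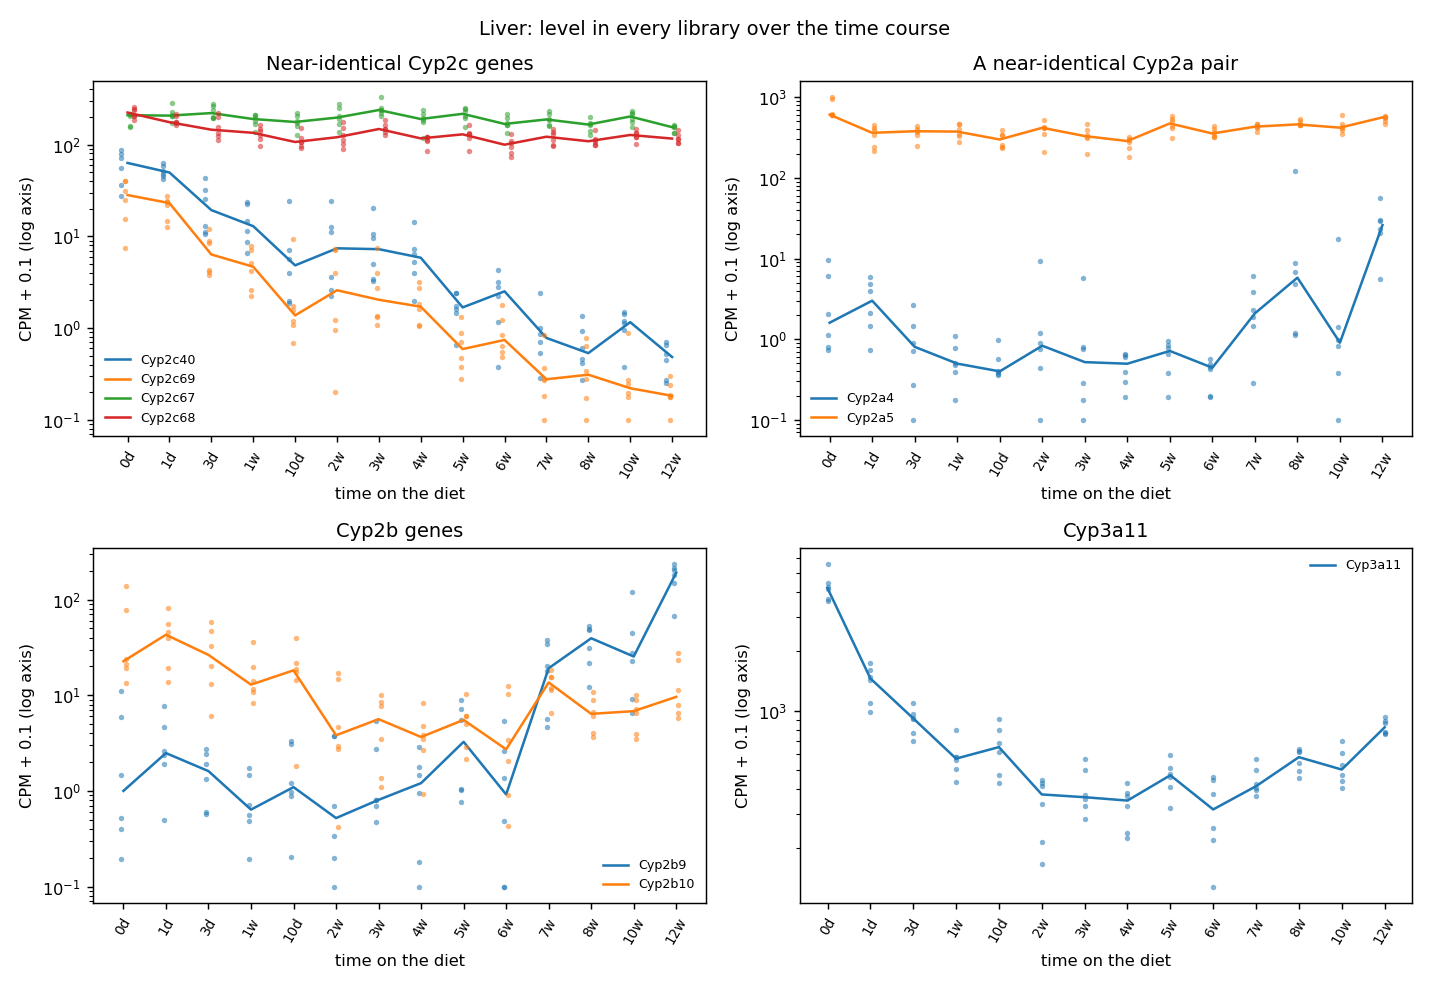
CPM + 0.1 of 9 members in liver on a log axis against time on the diet, from 0d to 12w; dots are libraries and lines join the medians of 6. Cyp2c40 and Cyp2c69 decline to under 1 CPM at 12w while Cyp2c67 and Cyp2c68 are above 100 CPM there, and Cyp2b9 has its highest medians late.

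Some P450 genes have a sex bias in mouse liver. Of the 4 members listed as male-biased 3 were lower at 12w (42.0% of all genes called in either direction) and none at 1d or 1w. Cyp4a12b, one of a pair of copies that hydroxylate arachidonic acid, had 1.88, 3.65 and 12.6 CPM at 12w, against 45.8, 83.6 and 99.1 CPM at 0d (-3.92 ± 0.32, adjusted p = 1.19e-16), and it was first called at 7w. Its copy Cyp4a12a had 45.2, 69.4 and 97.8 CPM at 12w, against 128, 177 and 205 CPM at 0d (-1.36 ± 0.24, adjusted p = 2.93e-06). Cyp2d9, a steroid hydroxylase of male mice, had 608, 856 and 1130 CPM at 12w, against 1300, 1630 and 1820 CPM at 0d (-0.85 ± 0.13, adjusted p = 8.85e-08). In all 3 the 12w and 0d libraries did not overlap. Cyp2d9 was first called at 2w (-0.42 ± 0.13, adjusted p = 0.0229). Cyp2u1 did not pass at 12w (-0.26, adjusted p = 0.412) and was higher at 10d (0.75 ± 0.24, adjusted p = 0.03) and at 5w (0.68 ± 0.24, adjusted p = 0.042).

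On the female-biased side the 3 of 7 listed genes that could be tested were all higher at 12w (42.0% of all genes called in either direction), and none passed at 1d or 1w. The sex bias of members outside both lists was not looked at. Cyp2c40 and Cyp2c69, with the largest liver falls at 12w, are among these, so the lists do not speak for all sex-biased members. Cyp2b9, which hydroxylates testosterone, had 67.9, 191 and 236 CPM at 12w, against 0.0932, 0.901 and 11.1 CPM at 0d (5.76 ± 0.63, adjusted p = 5.36e-12). It was first called at 7w, and at 8w its lowest library (12.2 CPM) lay above the highest of 0d. Cyp2a4, a steroid hydroxylase, had 5.55, 25.9 and 56.5 CPM at 12w, against 0.63, 1.5 and 9.54 CPM at 0d (3.04 ± 0.74, adjusted p = 0.000516), with overlap. Its near-copy Cyp2a5, which oxidises coumarin and bilirubin, was lower, with 459, 561 and 584 CPM at 12w, against 598, 607 and 999 CPM at 0d (-0.43 ± 0.17, adjusted p = 0.0332), and it was lowest at 4w (-1.43 ± 0.17). Cyp2b13, below the level for a member, was higher too, at 0.848, 3.81 and 5.69 CPM at 12w, against 0, 0 and 0.172 CPM at 0d (6.08 ± 0.74). At 0d Cyp2b13 was too low to pass the filter, so it was tested only through later groups in which it was higher. Its call, and with it the count of 3, is therefore not evidence by itself. Cyp2a4 was the 1 liver member called in both directions, lower at 6w (-3.44 ± 1.22, adjusted p = 0.0383) and higher at 8w (2.86 ± 0.74) and 12w. At 8w 1 library had 122 CPM of Cyp2a4 while the median was 5.68 CPM.

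Further members rose late without a place in those lists. Cyp2a22, a close copy of Cyp2a12, had 15.7, 37.9 and 49.5 CPM at 12w, against 0.905, 1.78 and 6.79 CPM at 0d (3.66 ± 0.47, adjusted p = 8.17e-10), while Cyp2a12 was lower (-0.37 ± 0.05). Cyp2c38 had 91.1, 96 and 113 CPM at 12w, against 18.7, 24.6 and 50.6 CPM at 0d (1.68 ± 0.33, adjusted p = 2.58e-05), and Cyp2c39 rose alongside it at a few CPM (1.71 ± 0.35). All 12w libraries of Cyp2a22, Cyp2c38 and Cyp2c39 exceeded all of their 0d libraries. Cyp2d26 had 1010, 1040 and 1140 CPM at 12w, against 731, 834 and 1010 CPM at 0d, and the groups overlapped (0.30 ± 0.06, adjusted p = 4.84e-05). Cyp4f18, which was under 1 CPM in the mean, completed the 8 higher members (1.55 ± 0.44, adjusted p = 0.00289).

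Among the other lower members at 12w, Cyp2c54 had 31.6, 45 and 147 CPM, against 301, 339 and 443 CPM at 0d (-2.55 ± 0.23, adjusted p = 1.63e-15). Its 147 CPM came from the same 12w library, replicate 6, that held the highest Cyp4a12b value, and the groups did not overlap. Cyp2c70, which makes muricholic acids from chenodeoxycholic acid in mouse, had 107, 118 and 194 CPM at 12w, against 461, 608 and 1000 CPM at 0d (-2.25 ± 0.23, adjusted p = 2.37e-13). Cyp1a2, the caffeine-oxidising AhR target, had 123, 155 and 204 CPM at 12w, against 453, 493 and 518 CPM at 0d (-1.62 ± 0.14, adjusted p = 6.8e-16). Cyp1a2 was already lower at 1d (-0.50 ± 0.14, adjusted p = 0.00957) and was called at 11 of 13 time points. Cyp2f2 (-0.87 ± 0.09), Cyp2c23, an arachidonic acid epoxygenase (-1.39 ± 0.10), Cyp4f14 (-1.02 ± 0.09), Cyp2r1, a vitamin D hydroxylase (-0.42 ± 0.11), and Cyp4v3, a fatty acid hydroxylase (-0.47 ± 0.09), were lower as well. The remaining lower members, from the largest to the smallest fall, included Cyp2g1 (-3.98 ± 0.46), Cyp2c29 (-1.51 ± 0.17), Cyp2c55 (-1.19 ± 0.31), Cyp2c50 (-1.13 ± 0.12), Cyp2d11 (-1.06 ± 0.41), Cyp2c37 (-0.94 ± 0.17), Cyp3a25 (-0.88 ± 0.15), Cyp2j9 (-0.88 ± 0.19), Cyp3a13 (-0.54 ± 0.13), Cyp4f13 (-0.51 ± 0.05) and Cyp2d10 (-0.27 ± 0.07). Of these Cyp2g1, Cyp2c55 and Cyp2d11 stood at a few CPM or less.

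Cyp2e1 and the PPARα targets Cyp4a10, Cyp4a14 and Cyp4a31 did not pass in liver at 12w. Cyp2e1 had 5940, 6660 and 8950 CPM at 12w, against 5490, 6610 and 8490 CPM at 0d (0.01 ± 0.10, adjusted p = 0.95), and was higher at 5w (0.34 ± 0.10, adjusted p = 0.017) and 7w alone. Cyp4a14, a PPARα target that hydroxylates fatty acids, had 634, 760 and 1110 CPM at 12w, against 24.4, 98.6 and 812 CPM at 0d (3.04-fold, adjusted p = 0.0706). The 0d libraries of Cyp4a14 spread widely, and the groups overlapped. Cyp4a10 (0.41 ± 0.48) and Cyp4a31 (-0.19 ± 0.26) did not pass at 12w either. Cyp4a31 was lower at 4 earlier time points, with -0.99 ± 0.28 at 1w (adjusted p = 0.0125), and so was the Cyp4a sum at 1w (-0.90 ± 0.31, adjusted p = 0.0412). At 12w 12 of 14 listed PPARα targets outside the P450 genes were higher (42.0% of all genes called in either direction), such as the fatty acid transporter Cd36 (2.80 ± 0.19), the pantetheinase Vnn1 (2.96 ± 0.30) and the lipid droplet coat Plin2 (1.35 ± 0.14). In all, 7 liver members were called at no time point: Cyp1b1, Cyp2d12, Cyp2j5, Cyp4a10, Cyp4a14, Cyp4a32 and Cyp4f16.

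The partners of the enzymes that passed were mostly higher. Of 14 listed genes of electron transfer and haem synthesis 7 were higher and 1 lower at 12w in liver; cytochrome b5 type B (Cyb5b, 0.62 ± 0.09) and its reductase Cyb5r3 (0.53 ± 0.10) were higher, ferrochelatase (Fech, -0.34 ± 0.05) was lower, and Por was at 0.00 ± 0.19. Of 21 tested regulators 3 were higher and 6 lower, with Nfe2l2 (0.84 ± 0.11) up and Nr3c1 (-0.44 ± 0.07), Tef (-0.32 ± 0.07) and Hnf4a (-0.42 ± 0.09) down. Over all genes tested in liver 42.0% were called at 12w, and the counts in this paragraph stand beside that share. The summed hepatocyte markers had a median of 93200 CPM at 12w, against 104000 CPM at 0d, with 2 of 10 higher and 4 lower. Macrophage markers summed to 68.1 to 103 CPM at 12w, against 58.3 to 97.8 CPM at 0d, with 3 of 6 tested higher. The part of these shifts in the results was not tested, and in bulk RNA fewer cells of a type and less RNA per cell cannot be told apart.

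In small intestine many members changed on the first day and were still changed at 12w. At 1d 6 of 37 tested members were higher and 17 lower, against 23.5% of all genes called. At 1w 6 were higher and 16 lower (27.0% of all genes), and at 12w 9 were higher and 20 lower (38.9% of all genes). Over all time points together 31 of 37 changed, against 68.6% of all genes. The median log2 fold change at 12w was -0.34 in the tested members and 0.02 over all genes. In all 14 members were lower at all 13 time points: Cyp2b10, Cyp2c29, Cyp2c38, Cyp2c55, Cyp2c65, Cyp2c66, Cyp2c68, Cyp2e1, Cyp3a11, Cyp3a13, Cyp3a25, Cyp4b1, Cyp4f14 and Cyp4v3. Cyp2d26, Cyp4a10 and Cyp4f16 were higher at all 13.

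Cyp2c29 and Cyp2c55 had the largest falls, and they are CAR and PXR targets, of which all 5 that could be tested were lower at both 1d and 12w. Over all genes 23.5% were called in either direction at 1d and 38.9% at 12w. Cyp2c29 had 0.507, 1.27 and 1.81 CPM at 1d and 1.43, 1.88 and 3.38 CPM at 12w, against 50.7, 70.2 and 84.3 CPM at 0d. Its log2 fold change was -5.77 ± 0.27 at 1d (adjusted p = 8.13e-31), -5.69 ± 0.27 at 1w (adjusted p = 1.49e-30) and -4.99 ± 0.24 at 12w (adjusted p = 2.38e-29). All 13 later groups of Cyp2c29 lay below 0d without overlap. Cyp2c55 had 4.9, 6.81 and 9.6 CPM at 1d and 7.13, 8.92 and 12.3 CPM at 12w, against 87.8, 103 and 113 CPM at 0d, with changes of -3.82 ± 0.17 at 1d (adjusted p = 4.38e-31), -4.46 ± 0.18 at 1w (adjusted p = 1.21e-33) and -3.43 ± 0.17 at 12w (adjusted p = 2.38e-29). Cyp2c55 makes hydroxy fatty acids from arachidonic acid. Cyp3a11 had 122, 183 and 257 CPM at 1d and 174, 190 and 242 CPM at 12w, against 1050, 1360 and 1500 CPM at 0d (-2.79 ± 0.25, adjusted p = 3.07e-15 at 1d, and -2.71 ± 0.25, adjusted p = 7.84e-15 at 12w). In none of these 3 genes did a 1d or 12w library reach the range of 0d.

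Cyp2c66 and Cyp2b10 followed with smaller falls. Cyp2c66, a gut copy of the Cyp2c cluster, had 24.9, 30.6 and 32.3 CPM at 12w, against 99, 111 and 132 CPM at 0d (-1.97 ± 0.12, adjusted p = 1.25e-22). Cyp2b10 had 135, 149 and 200 CPM at 12w, against 312, 372 and 423 CPM at 0d (-1.19 ± 0.14, adjusted p = 7.57e-11). Neither pair of groups overlapped. Outside the P450 genes 7 of 11 listed CAR and PXR targets were lower and 2 higher at 12w (38.9% of all genes called), with Ces2a at -1.05 ± 0.12, Gstm1 at -1.01 ± 0.09 and Gstm2 at -1.35 ± 0.11. Nr1i2 (0.05, adjusted p = 0.744) and Nr1i3 (0.08, adjusted p = 0.374) did not pass.

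**Figure D4:**
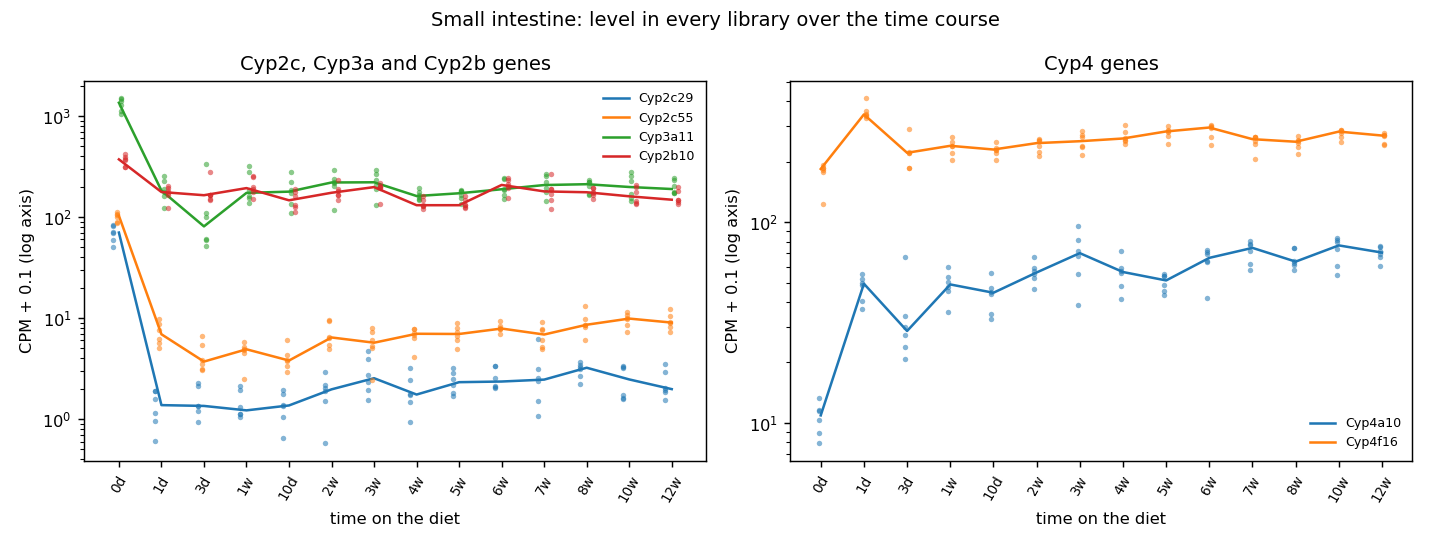
CPM + 0.1 of 6 members in small intestine on a log axis against time on the diet, from 0d to 12w; dots are libraries and lines join the medians of 6. Cyp2c29, Cyp2c55 and Cyp3a11 lie lower, and Cyp4a10 higher, at each later time point than in any 0d library.

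Fatty acid oxidases of family 4 were among the gut members that rose. Cyp4a10, a PPARα target, had 36.9, 49.2 and 55.1 CPM at 1d and 60.7, 70.5 and 75.7 CPM at 12w, against 7.8, 10.8 and 13.2 CPM at 0d. Its change was 2.19 ± 0.18 at 1d (adjusted p = 8.71e-17), 2.23 ± 0.18 at 1w (adjusted p = 8.69e-17) and 2.75 ± 0.18 at 12w (adjusted p = 5.62e-22). Every later library shown lay above all 0d libraries. Cyp4f16, a member of the leukotriene-oxidising Cyp4f group, had 331, 344 and 414 CPM at 1d and 243, 270 and 277 CPM at 12w, against 123, 184 and 193 CPM at 0d, with changes of 1.02 ± 0.08 at 1d (adjusted p = 2.94e-18), 0.44 ± 0.08 at 1w (adjusted p = 8.83e-06) and 0.59 ± 0.08 at 12w (adjusted p = 2.94e-09). Of 13 tested PPARα targets outside the P450 genes 8 were higher, among them the thioesterase Acot1 (2.23 ± 0.20), and 2 lower at 12w (38.9% of all genes called). The Cyp4a sum was 62.7, 72.7 and 77.6 CPM at 12w, against 8.59, 12.4 and 15 CPM at 0d (2.60 ± 0.18, adjusted p = 4.05e-21), and 3 subfamily sums were higher and 9 lower of 15 (38.9% of all rows of that fit).

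Smaller rises were seen in Cyp2d26, whose function is little described, with 563, 644 and 677 CPM at 1w, against 376, 459 and 560 CPM at 0d (0.46 ± 0.08, adjusted p = 1.88e-06), and 0.24 ± 0.08 at 12w (adjusted p = 0.00882). Cyp2c23 had 7.1, 8.23 and 9.88 CPM at 1d, against 5.08, 5.26 and 6.78 CPM at 0d (0.60 ± 0.16, adjusted p = 0.00376), and did not pass at 12w. Both later groups lay above 0d without overlap. At 12w Cyp2d22 had 57.3, 60.1 and 67.3 CPM, against 42.6, 49.3 and 55.6 CPM at 0d (0.32 ± 0.07, adjusted p = 0.000267), and Cyp4f18 5.29, 6.11 and 9.28 CPM, against 3.86, 5.14 and 5.88 CPM at 0d, with overlap (0.39 ± 0.12, adjusted p = 0.00825). Por was higher (0.73 ± 0.09) and cytochrome b5 type A (Cyb5a) lower (-0.67 ± 0.06) at 12w. Pancreatic acinar markers, all 8 with reads, summed to 2690 to 37900 CPM at 1d and 135 to 3010 CPM at 12w, against 7370 to 19600 CPM at 0d, and enterocyte markers to 26600 to 30200 CPM at 12w, against 30300 to 37500 CPM at 0d. Their part in the results was not tested.

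Liver and small intestine were compared directly by the difference of their 12w changes, small intestine minus liver. The fit took their libraries as independent, although the same mice may have given both organs, and this limits its p-values. Of 60 members in that fit 11 differences were positive and 8 negative, against 27.0% of all genes. Cyp2c29 fell further in small intestine (-4.99) than in liver (-1.51), a difference of -3.51 ± 0.29 (adjusted p = 2.37e-21), and Cyp2c55 likewise (-2.28 ± 0.32, adjusted p = 2.85e-09). Cyp2c38 was lower in small intestine and higher in liver (-3.59 ± 0.56, adjusted p = 1.03e-07). Cyp2e1 stood at a few CPM in small intestine with 0.746, 1.5 and 2 CPM at 12w, against 6.51, 12.2 and 19.9 CPM at 0d (-3.13 ± 0.35), and its difference from liver was -3.17 ± 0.34 (adjusted p = 2.06e-14). The differences were positive for Cyp2c23 (1.43 ± 0.19, adjusted p = 2.9e-10), Cyp4f14 (0.79 ± 0.11, adjusted p = 3.85e-09) and Cyp4f13 (0.50 ± 0.08, adjusted p = 2.72e-08), which were all lower in liver. In small intestine Cyp4f14 was lower at 12w (-0.19 ± 0.06, adjusted p = 0.00812), while Cyp2c23 (0.08 ± 0.17, adjusted p = 0.754) and Cyp4f13 (0.03 ± 0.05, adjusted p = 0.655) did not pass. Cyp4f15 (1.17 ± 0.20, adjusted p = 1.44e-06) was higher in small intestine and lower in liver. For Cyp3a11 the difference did not pass (-0.38 ± 0.32, adjusted p = 0.423), which does not show that the falls were equal.

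In white fat the leading P450, Cyp2e1, fell. In epididymal fat, the depot beside the testis, Cyp2e1 had 1330, 2040 and 2460 CPM at 1d, 2150, 2410 and 2720 CPM at 1w, 229, 410 and 1020 CPM at 7w, 35.2, 68.2 and 152 CPM at 12w and 41.2, 79.2 and 101 CPM at 20w, against 3440, 4320 and 4900 CPM at 0d. The 1d and 1w libraries lay below all of 0d but the changes did not pass (-1.15 ± 0.45, adjusted p = 0.0592 at 1d, and -0.83 ± 0.45, adjusted p = 0.139 at 1w); from 4w on it passed at each time point. It was -5.81 ± 0.55 at 12w (adjusted p = 1.14e-15) and -5.82 ± 0.55 at 20w (adjusted p = 1.28e-15). In inguinal fat, under the skin of the groin, Cyp2e1 had 815, 1010 and 1320 CPM at 1d, 658, 1130 and 1680 CPM at 1w and 108, 168 and 392 CPM at 12w, against 1580, 2580 and 3750 CPM at 0d, with changes of -1.34 ± 0.33 at 1d (adjusted p = 0.0286, no overlap), -1.22 ± 0.33 at 1w (adjusted p = 0.0112, groups overlapping) and -3.77 ± 0.36 at 12w (adjusted p = 1.93e-13, no overlap). The fall was deeper in epididymal fat, by -2.04 ± 0.56 (adjusted p = 0.00192).

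Cyp2f2 fell beside it from a lower level. In epididymal fat it had 8.87, 12.4 and 13.3 CPM at 1w and 0.0872, 0.368 and 1.2 CPM at 12w, against 48.2, 67.3 and 135 CPM at 0d, with changes of -2.78 ± 0.55 at 1w (adjusted p = 3.79e-05), -7.34 ± 0.74 at 12w (adjusted p = 1.67e-14) and -5.43 ± 0.64 at 20w (adjusted p = 1.03e-11). In inguinal fat it had 12.8, 27 and 42.5 CPM at 1w and 0.302, 1.33 and 5.84 CPM at 12w, against 83.7, 145 and 171 CPM at 0d (-2.44 ± 0.64, adjusted p = 0.00927 at 1w, and -6.18 ± 0.77, adjusted p = 8.67e-10 at 12w). None of these later groups overlapped 0d. The difference between the depots did not pass for Cyp2f2 (-1.16 ± 0.97, adjusted p = 0.352).

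**Figure D5:**
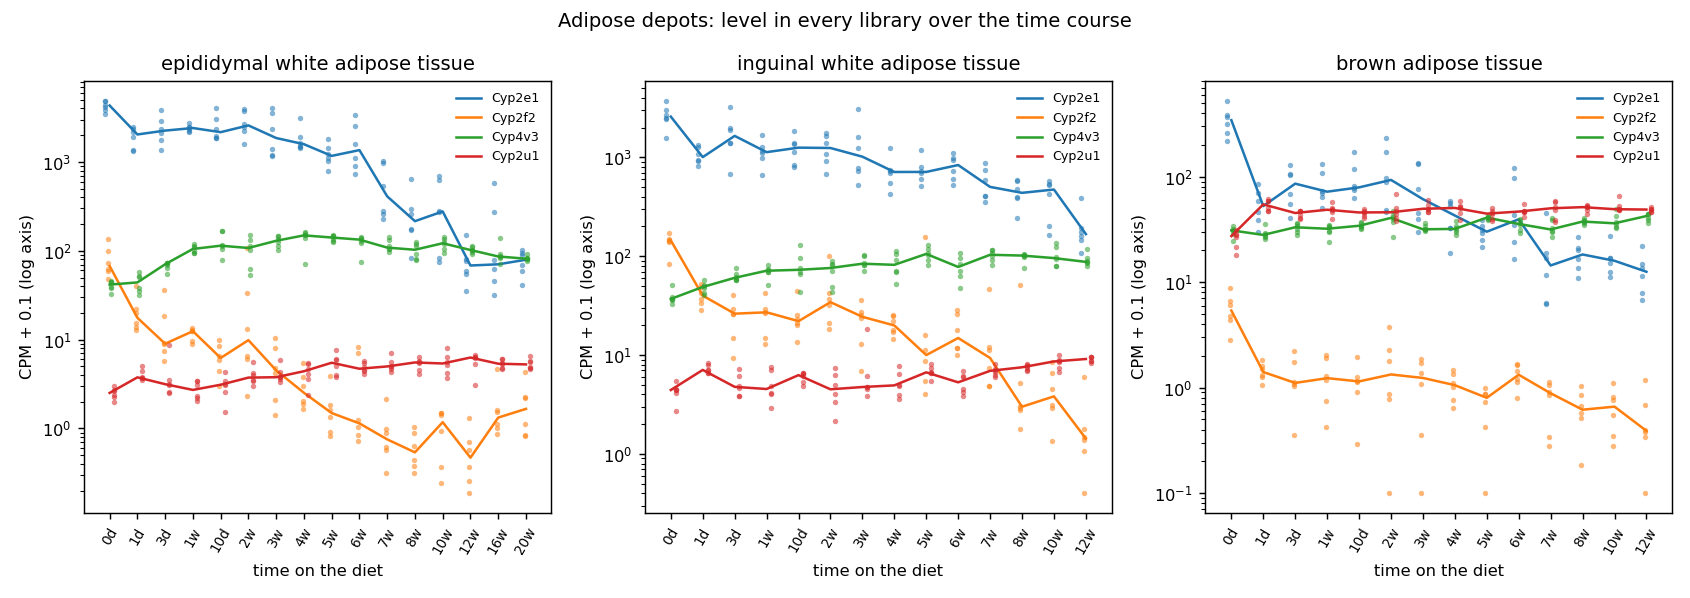
CPM + 0.1 of Cyp2e1, Cyp2f2, Cyp4v3 and Cyp2u1 in epididymal, inguinal and brown fat on a log axis against time on the diet, from 0d to 12w (20w in epididymal fat); dots are libraries and lines join the medians of 6. All 12w libraries of Cyp2e1 and of Cyp2f2 lie below all 0d libraries in each of the 3 depots.

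Opposite to these, Cyp4v3 rose in both white depots. It had 93.2, 105 and 120 CPM at 1w, 92.1, 102 and 112 CPM at 12w and 77.6, 81.4 and 91 CPM at 20w in epididymal fat, against 32.7, 41.5 and 46.1 CPM at 0d, with changes of 1.37 ± 0.17 (adjusted p = 1.7e-09), 1.33 ± 0.17 (adjusted p = 1.48e-10) and 1.02 ± 0.17 (adjusted p = 2.62e-07). In inguinal fat it had 50.7, 71.3 and 80.7 CPM at 1w and 79.1, 87.6 and 119 CPM at 12w, against 32.7, 36.9 and 50.5 CPM at 0d (0.85 ± 0.18, adjusted p = 0.00126 at 1w, and 1.26 ± 0.18, adjusted p = 2.57e-08 at 12w). All of these later libraries lay above all 0d libraries of their depot. Cyp4v3 was called from 3d on, at 14 of 15 time points in epididymal and 12 of 13 in inguinal fat.

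Across the tested members of epididymal fat 2 were higher and 10 lower at 1w (36.4% of all genes called), 7 higher and 13 lower at 12w (60.4%) and 6 higher and 13 lower at 20w (60.8%). Some of these calls, at 1w above all of members at a few CPM or less, rested on 1 library of 0d that is described below. Over all time points 24 of 27 changed, against 90.8% of all genes. Of the subfamily sums 5 were higher and 8 lower of 15 in epididymal fat at 12w (60.3% of all rows of that fit), 6 higher and 5 lower of 16 in inguinal fat (44.6%), and 3 higher and 4 lower of 13 in brown fat (27.5%). Cyp2d22 had 25.2, 27.1 and 36.4 CPM at 12w, against 64.4, 69.5 and 103 CPM at 0d (-1.42 ± 0.17, adjusted p = 2.43e-11), after -0.58 ± 0.17 at 1w (adjusted p = 0.00429) and before -1.33 ± 0.17 at 20w (adjusted p = 2.23e-10). Cyp4f13 was slightly lower at 1w (-0.23 ± 0.08, adjusted p = 0.0128), with 17.6, 23 and 25 CPM, against 23.2, 26.7 and 28.9 CPM at 0d, and not at 12w. Cyp4f17 had 8.55, 14.8 and 19.5 CPM at 12w, against 17.5, 26.8 and 43.5 CPM at 0d, with overlap (-0.99 ± 0.21, adjusted p = 3.16e-05), and Cyp2j9, an epoxygenase, 5.34, 7.24 and 11.7 CPM, against 10.1, 11.5 and 13 CPM at 0d, with overlap (-0.59 ± 0.16, adjusted p = 0.00124).

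Some epididymal members were higher at 12w. Cyp1b1, an AhR target that oxidises oestradiol and is expressed in stromal cells, had 85.3, 113 and 161 CPM at 12w and 118, 126 and 144 CPM at 20w, against 61.7, 84.3 and 91.3 CPM at 0d (0.53 ± 0.17, adjusted p = 0.00449, and 0.65 ± 0.17, adjusted p = 0.000509). It had been lower at 3d (-0.67 ± 0.17) and 2w (-0.69 ± 0.17), and it was 1 of 4 members called in both directions, with Cyp2b10, Cyp2s1 and Cyp4b1. Cyp4f18, which degrades leukotriene B4 in mouse neutrophils, had 7.88, 13 and 19 CPM at 12w, against 6.67, 8.08 and 12.3 CPM at 0d (0.56 ± 0.20, adjusted p = 0.0108), and 9.15, 12.1 and 16.3 CPM at 20w (0.46 ± 0.19, adjusted p = 0.0372). Cyp2s1 had 8.39, 10.3 and 13.4 CPM at 12w, against 3.6, 7.27 and 8.9 CPM at 0d (0.66 ± 0.28, adjusted p = 0.0339). The groups of Cyp4f18 and Cyp2s1 overlapped with 0d, and the lowest 0d value of Cyp2s1 was that of the library described below. At a few CPM Cyp2r1 (1.77 ± 0.26), Cyp2u1, a fatty acid hydroxylase (1.21 ± 0.22), and Cyp4f39, which makes ultra-long-chain hydroxy fatty acids (1.86 ± 0.40), were higher as well. Not all of these rises were late. Cyp2r1 and Cyp2u1 were first called higher at 1d, Cyp4f39 at 3d and Cyp4f18 at 2w.

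Cell markers moved with these results in epididymal fat. Macrophage markers, all 7 with reads, summed to 2740 to 6940 CPM at 12w, against 225 to 378 CPM at 0d, adipocyte markers, all 8 with reads, to 11400 to 18200 CPM, against 19100 to 26700 CPM at 0d, and fibroblast markers to 7720 to 10100 CPM, against 2850 to 4910 CPM at 0d. Epithelial markers summed to 16.1 to 48.5 CPM at 12w, against 13.5 to 638 CPM at 0d. Their 0d median was 388 CPM, and the next lowest 0d library had 276 CPM. Their part in the results was not tested. All 9 listed clock output genes were lower at 12w (60.4% of all genes called in either direction), with Dbp at -2.62 ± 0.24 and Nr1d1 at -2.12 ± 0.17. Por was lower too (-1.76 ± 0.14), with 183, 199 and 217 CPM, against 612, 661 and 811 CPM at 0d. In inguinal fat 3 of the 9 clock output genes were lower (44.6% of all genes called in either direction) and Por stood at -0.87 ± 0.20.

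The 0d library of epididymal fat with replicate number 1 stood apart from the other 5. Its hepatocyte markers summed to 1950 CPM, where the group's median was 28 CPM, and its epithelial markers to 13.5 CPM, where the group's median was 388 CPM. It held 24.9 CPM of Cyp2d9, 17.2 CPM of Cyp2d26, 10.3 CPM of Cyp2c23 and 4.03 CPM of Cyp2c70, where the other 5 had at most 7.26, 2.46, 0.345 and 0 CPM. Without this library the 12w change of Cyp2c23 was 3.98 ± 0.63 (adjusted p = 7e-08), against 0.72 with it (adjusted p = 0.32), and that of Cyp2c70 7.25 ± 0.98 (adjusted p = 1.27e-09), against 0.95 with it (adjusted p = 0.252). Cyp4f14 lost its call without it (-0.66, adjusted p = 0.483, against -2.10 with it, adjusted p = 0.0135), and so did Cyp2s1 (0.53, adjusted p = 0.106). Cyp2e1 (-5.80 ± 0.56), Cyp2f2 (-7.12 ± 0.74) and Cyp4v3 (1.36 ± 0.18) kept theirs. At 1w the lower call of Cyp2c23 was lost without it (1.42 ± 0.62, adjusted p = 0.0626, against -1.83, adjusted p = 0.0242). So were those of Cyp2c70 (1.20 ± 0.98, adjusted p = 0.38, against -5.09, adjusted p = 0.000139) and Cyp4a12a (-3.81 ± 2.38, adjusted p = 0.213, against -6.50, adjusted p = 0.0166). Cyp2r1 (0.78 ± 0.27, adjusted p = 0.0157) and Cyp2s1 (-0.71 ± 0.29, adjusted p = 0.0437) gained a call at 1w.

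In inguinal fat 2 tested members were higher and 2 lower at 1w (12.0% of all genes called) and 9 higher and 6 lower at 12w (44.6% of all genes), and over all time points 17 of 24 changed, against 65.0%. Cyp2u1 had 8.15, 9.03 and 9.45 CPM at 12w, against 2.63, 4.33 and 5.31 CPM at 0d (1.09 ± 0.23, adjusted p = 0.000105), and Cyp4b1, which hydroxylates medium-chain fatty acids, 92.2, 107 and 130 CPM, against 59.9, 68 and 81 CPM at 0d (0.67 ± 0.14, adjusted p = 5.74e-05). Neither overlapped 0d. Cyp2j9 (9.3, 11 and 13.1 CPM at 12w, against 5.76, 7.81 and 11.5 CPM at 0d; 0.45 ± 0.18, adjusted p = 0.0329) and Cyp2j6 (25.6, 29.8 and 33.4 CPM, against 18.7, 23 and 28.1 CPM at 0d; 0.39 ± 0.15, adjusted p = 0.033) rose with overlap. The median log2 fold change of the tested members at 12w was -0.39 in epididymal fat, where that of all genes was -0.00, and 0.42 in inguinal fat, where that of all genes was -0.01.

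Lower in inguinal fat at 12w was Cyp4f18, with 6.88, 8.16 and 11.8 CPM, against 11.7, 22.2 and 27.2 CPM at 0d (-1.28 ± 0.35, adjusted p = 0.00175). Cyp1b1 had 38.7, 45.5 and 55.7 CPM, against 59.9, 62.8 and 80 CPM at 0d (-0.52 ± 0.19, adjusted p = 0.0215), and Cyp4f13 20.1, 23.1 and 25.9 CPM, against 24.8, 26.7 and 34.1 CPM at 0d (-0.29 ± 0.11, adjusted p = 0.0316). Of these Cyp1b1 alone had groups that did not overlap. Lymphocyte markers, all 7 with reads, summed to 4.29 to 15.8 CPM at 12w, against 467 to 1350 CPM at 0d. Skeletal muscle markers summed to 5760 to 27000 CPM at 12w (median 9790 CPM), against 8.38 to 28600 CPM at 0d (median 126 CPM). The highest 0d value was that of replicate 6, and the next highest was 2170 CPM. The part of both shifts in the 12w changes of inguinal fat, those of Cyp4f18 and Cyp2s1 (-2.02 ± 0.55) among them, was not tested. Single libraries also held members that the others lacked: at 5w the highest inguinal library had 239 CPM of the keratinocyte enzyme Cyp2b19, where the median was 0, and the highest of Cyp3a13 was 9.49 CPM, where the median was 0.556 CPM.

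Some members changed differently in the 2 white depots, though not a larger share of them than of all genes. Of 29 members in the joint fit 3 differences (epididymal minus inguinal change at 12w) were positive and 7 negative, against 40.3% of all genes. Here too the libraries of the 2 depots were taken as independent, although the same mice may have given both. Cyp4f18 (1.83 ± 0.39, adjusted p = 5.61e-05), Cyp2s1 (2.68 ± 0.59, adjusted p = 8.01e-05) and Cyp1b1 (1.05 ± 0.26, adjusted p = 0.000402) were higher in epididymal and lower in inguinal fat. The epididymal rise of Cyp2s1 did not pass without the 0d library of replicate 1 (0.53, adjusted p = 0.106). Cyp2j9 (-1.03 ± 0.24, adjusted p = 0.000165) and Cyp2j6 (-0.77 ± 0.18, adjusted p = 0.000217) were lower in epididymal and higher in inguinal fat. Cyp4b1 (-0.91 ± 0.19, adjusted p = 3.37e-05) passed its own test in inguinal fat and not in epididymal fat, and Cyp4f17 (-1.10 ± 0.27, adjusted p = 0.000516) in epididymal fat and not in inguinal fat.

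Brown fat burns lipid to make heat. There 1 tested member was higher and 3 lower at 1w (15.7% of all genes called), and 4 were higher and 4 lower at 12w (27.6%), with 10 of 17 changed over all time points (65.7% of all genes). Cyp2e1 had 29.8, 52.5 and 86 CPM at 1d and 6.72, 12.4 and 22.1 CPM at 12w, against 218, 344 and 526 CPM at 0d; its change was -2.65 ± 0.41 at 1d, -2.05 ± 0.40 at 1w (adjusted p = 0.000103) and -4.76 ± 0.46 at 12w (adjusted p = 2.05e-13). Cyp2f2, at a few CPM, and Cyp2j6 were lower at all 13 time points as well. Cyp2j6 had 21.1, 22.3 and 22.9 CPM at 12w, against 37.5, 39.9 and 47.1 CPM at 0d (-0.90 ± 0.10, adjusted p = 6.95e-11), after -0.57 ± 0.10 at 1w (adjusted p = 2.47e-05). None of these groups overlapped 0d.

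Cyp2u1 was the 1 member higher at all 13 time points in brown fat, with 47.4, 54.6 and 61.8 CPM at 1d, 39.2, 48.5 and 57.1 CPM at 1w and 46.3, 48.7 and 51.4 CPM at 12w, against 17.8, 27.3 and 31.1 CPM at 0d. Its change was 1.08 ± 0.11 at 1d, 0.92 ± 0.11 at 1w (adjusted p = 1.3e-09) and 0.92 ± 0.11 at 12w (adjusted p = 3.12e-10). All later libraries given lay above all 0d libraries. Cyp4v3 had 36.5, 42.2 and 44.6 CPM at 12w, against 24.5, 30.9 and 34.2 CPM at 0d (0.46 ± 0.10, adjusted p = 0.000173), without overlap. Cyp4b1 had 66, 91.1 and 117 CPM, against 48.9, 61.6 and 94.1 CPM at 0d, with overlap (0.52 ± 0.20, adjusted p = 0.0382), and Cyp4f13 23, 29.6 and 33.4 CPM, against 32.5, 35.2 and 38.4 CPM at 0d, with overlap (-0.28 ± 0.10, adjusted p = 0.0218). Cyp2b10 dipped on the first day alone, to 4.24, 11.6 and 27 CPM at 1d, against 50.7, 62.4 and 111 CPM at 0d (-2.38 ± 0.50, adjusted p = 0.000288). It was called at no other time point. The uncoupling and other brown adipocyte markers summed to 11900 to 20200 CPM at 1d, 11800 to 16500 CPM at 1w and 7380 to 9860 CPM at 12w, against 7680 to 11900 CPM at 0d. Their part in the results was not tested.

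In muscle and pancreas few members changed at 12w. In gastrocnemius muscle 2 of 16 were lower and none higher (5.94% of all genes called): Cyp2e1 had 3.39, 4.99 and 9.82 CPM, against 22.7, 28.9 and 110 CPM at 0d (-2.84 ± 0.34, adjusted p = 1.69e-09), and Cyp2f2 0.195, 0.423 and 0.581 CPM, against 2.1, 3.14 and 5.6 CPM at 0d (-3.09 ± 0.35, adjusted p = 4.65e-10). In soleus muscle (3.88% of all genes called) Cyp2e1 was lower (-2.68 ± 0.61, adjusted p = 0.00264) and Cyp4b1 higher (0.92 ± 0.23, adjusted p = 0.00739), both without overlap. In pancreas (5.90%) Cyp4v3 had 1.07, 1.99 and 3.66 CPM, against 4.44, 5.67 and 7.2 CPM at 0d (-1.32 ± 0.23, adjusted p = 2e-05), and Cyp2e1 was lower with overlap (-2.12 ± 0.63, adjusted p = 0.0289). Cyp2e1 was thus lower at 12w in 7 of the 13 organs. Its mean over all libraries was 13.5 CPM in gastrocnemius, 10.1 CPM in soleus and 5.33 CPM in pancreas, against 1555 CPM in epididymal fat. Cell markers were not summed in muscle or pancreas, so the part of other tissue in these falls was not tested.

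The pituitary gland had 4 higher and 9 lower of 18 (45.6% of all genes called). Most of its P450 count was Cyp2f2, with 219, 252 and 285 CPM at 12w, against 209, 263 and 300 CPM at 0d, with overlap, and it did not pass (-0.04 ± 0.09, adjusted p = 0.727). Cyp4f17 had 26.3, 28 and 30.1 CPM at 12w, against 43.5, 47.1 and 49.6 CPM at 0d (-0.75 ± 0.08, adjusted p = 7.59e-12), Cyp2j9 5.66, 8.72 and 9.92 CPM, against 3.46, 4.34 and 5.62 CPM at 0d (0.89 ± 0.15, adjusted p = 4.33e-07), and Cyp2r1 was higher at about 1 CPM (1.78 ± 0.36, adjusted p = 3.21e-05). Cyp4f17 and Cyp2j9 did not overlap 0d. In olfactory bulb 1 member was higher and 6 lower (20.8%). Cyp2e1 rose there at a low level, with 0.978, 1.32 and 1.74 CPM, against 0.0643, 0.229 and 0.48 CPM at 0d (2.23 ± 0.45, adjusted p = 0.000114), while Cyp4f13 (-0.36 ± 0.09, adjusted p = 0.00144) and Cyp4f16 (-0.35 ± 0.10, adjusted p = 0.00412) were lower. For the other lower members the groups overlapped, and the highest 0d library stood far above the 0d median. It had 16.7 against 0 CPM for Cyp2g1 and 33.7 against 0.0412 CPM for Cyp2a5. For Cyp1a2 it had 2.06 against 0 CPM, and for Cyp2f2 7.65 against 0.789 CPM. In hippocampus 1 was higher and 4 lower (25.6%), with Cyp2j6 at -0.24 ± 0.07, Cyp2j12 at -0.70 ± 0.22 and Cyp4f13 at -0.31 ± 0.10, and in neocortex Cyp2t4 was higher (0.63 ± 0.24) and Cyp2j6 lower (-0.17 ± 0.07) against 25.0% of all genes. In hypothalamus edgeR called 0 of 18 members, against 6.80% of all genes, with 3 at an unadjusted p under 0.05, and no other tool was run there. Cyp4x1, a brain member that turns anandamide into an epoxide, had 22.4, 25.4 and 27.8 CPM in olfactory bulb at 12w, against 22.6, 23.7 and 25 CPM at 0d, with overlap, and did not pass (0.09 ± 0.07, adjusted p = 0.383).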

How the data were processed

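The authors deposited 1 table of read counts per gene for all libraries. Per the submitters' processing notes, the build was GRCm38 (mm10) and the tools named are featureCounts 1.6.3, HISAT2 2.1.0, SAMtools 1.9, Trimmomatic 0.38 and FastQC 0.11.7, with no roles given. Libraries were poly(A)-selected and strand-specific, per the labels' protocols. For the gene annotation, the strand setting and the treatment of reads that match several genes, the sources used here give no details.

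From these deposited counts CPM values were computed with TMM library sizes. Each organ was fitted alone with edgeR 4.0.16 in R 4.3.3: genes with low counts were removed by filterByExpr, TMM factors were set, and a quasi-likelihood model with 1 coefficient per time point gave log2 fold changes against 0d. The SE is the size of the log2 fold change divided by the square root of F. Tests were two-sided, and p-values were adjusted over all genes tested by Benjamini and Hochberg with a threshold of 0.05. An F test covered all time points together, subfamily sums replaced their members in a second fit, and joint fits of 2 organs tested the difference of their 12w changes. The joint fits took the libraries of the 2 organs as independent. Organs that may come from the same mouse were not modelled as pairs. The alternatives were RLE size factors, no filter, DESeq2 1.42.0, only the 2 time points compared, 1 library fewer per time point, other limits for membership and the replicate number as a block. A fit without 1 epididymal library was added after seeing the data. The fitting code was tested on simulated counts.

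Members named in full had a mean of at least 5 CPM in the organ and an adjusted p under 0.05, and were the highest and lowest at set time points. The members, lists and markers were chosen with earlier results of these data known. Gene positions and transcript identities come from GENCODE M21, which held 64 of 64 members, and promoter stretches from RefSeq (GRCm38.p6), which held 51. Figures were drawn with matplotlib 3.10.9. Library totals set the precision, and values of a few CPM rest on few reads.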

Additional observations from a re-analysis of the deposited data

Results flagged for a closer look

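In 10 of 134 groups of 6 libraries looked at, 1 library lay far from the rest; chance alone flags about 1 group in 20. In liver at 12w this was replicate 6 for all 3 genes concerned: Cyp4a12b had 12.6 CPM there and 5.41 CPM in the next library, Cyp2c54 had 147 CPM and 60.9 CPM in the next, and Cyp2d26 had 1140 CPM and 1050 CPM in the next. In inguinal fat at 12w replicate 6 held 392 CPM of Cyp2e1, where the next library had 193 CPM, and 5.84 CPM of Cyp2f2, where the next had 1.67 CPM. In the 0d group of that depot Cyp2f2 was low in replicate 1, with 83.7 CPM and 139 CPM in the next, and Cyp4v3 was high in replicate 6, with 50.5 CPM and 38.9 CPM in the next. In small intestine Cyp4f16 reached 414 CPM in replicate 4 at 1d, with 357 CPM in the next, and was low in replicate 6 at 0d, with 123 CPM and 177 CPM in the next. In brown fat Cyp4b1 had 94.1 CPM in replicate 4 at 0d and 62 CPM in the next library.

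The change at 12w differed between 2 organs, by the edgeR test of the difference itself, in 15 members named here. Over all genes 40.3% differed between epididymal and inguinal fat and 27.0% between small intestine and liver. For epididymal minus inguinal fat the differences in log2 fold change were 2.68 for Cyp2s1, 1.83 for Cyp4f18, 1.05 for Cyp1b1, -0.77 for Cyp2j6, -0.91 for Cyp4b1, -1.03 for Cyp2j9 and -1.10 for Cyp4f17. For small intestine minus liver they were 1.43 for Cyp2c23, 1.17 for Cyp4f15, 0.79 for Cyp4f14, 0.50 for Cyp4f13, -2.28 for Cyp2c55, -3.17 for Cyp2e1, -3.51 for Cyp2c29 and -3.59 for Cyp2c38.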

How the results depend on the processing

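Of 667 recomputed values for 115 named gene and comparison results, 648 kept their direction and side of the threshold, 19 kept their direction but no longer passed, and 0 reversed. These do not cover every called member. Without the epididymal 0d library of replicate 1, Cyp2c70 at 1w moved from -5.09 to 1.20 and Cyp2c23 from -1.83 to 1.42. Neither passed without it. Of 146 recomputed counts 139 stayed within 1.5 times. Without a filter on low counts more members were called in fat: 24 in epididymal fat at 1w, 32 at 12w and 33 at 20w, and 42 in epididymal, 30 in inguinal and 19 in brown fat over all time points; more genes enter that fit. With only the 2 time points compared 2 members were called in inguinal fat at 1w; fewer libraries enter that fit. The calls lost under at least 1 setting were Cyp2j6 in liver at 1d (adjusted p up to 0.157) and in neocortex (up to 0.0759), Cyp4f17 in liver at 1w (up to 0.136), Cyp4f18 in small intestine (0.0624) and in epididymal fat at 20w (up to 0.0766), Cyp2s1 in epididymal fat (up to 0.106), Cyp2e1 in inguinal fat at 1w (0.0929), Cyp4b1 in brown fat (0.0652), Cyp2t4 in neocortex (0.0551) and Cyp2j12 in hippocampus (0.0518). Membership gave 67 genes at 0.5 CPM, 55 at 5 CPM and 64 without TMM factors.

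Within an organ, replicate numbers did not pair the libraries of different time points: correlations of same-numbered deviations ran from -0.51 to 0.62, and in no comparison were all 6 over 0.1. Pairing across organs was not looked at. With the replicate number as a block, all 26 counts stayed within 1.5 times and all 115 gene values kept their call. Near-identical copies, values of a few CPM and the missing off-diet mice limit what these comparisons can separate.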
